A study of Mus musculus with 458 samples.

Results

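The 10 genes described here encode the machinery by which a cell shows peptides to T cells on molecules of the major histocompatibility complex (MHC), out of 22645 genes in the table. They were taken by symbol, and all 10 were found. B2m, H2-K1, H2-D1 and H2-T23 make up MHC class I, Tap1, Tap2 and Tapbp supply and load its peptides, and Cd74, H2-Aa and H2-Ab1 belong to MHC class II. They were measured in 458 haematopoietic stem cells (HSCs), each sequenced as a library of its own with the SMARTer Ultra Low RNA kit. The HSCs came from the bone marrow of 6 C57BL/6 mice, each transplanted with a single Vwf+ HSC and followed over 16 weeks. All donor HSCs of a mouse are thus 1 clone, and the mouse is the replicate. The clone of a PLT mouse replenished only platelets (93 and 84 cells sequenced in 2 mice). That of a PEM mouse replenished platelets, red cells and myeloid cells (93 and 25 cells), and that of a multilineage (MUL) mouse all blood lineages (78 and 85 cells). The sort phenotype LSK CD150+CD48-CD45.2+ selects HSCs, and its CD45.2 arm selects those from the donor.

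Class I molecules are carried by nearly all nucleated cells and show peptides made inside the cell to CD8 T cells. Each consists of a heavy chain, a peptide and the light chain beta-2 microglobulin, and the peptide reaches it through the TAP transporter. Class II molecules, in contrast, are known from dendritic cells, B cells and macrophages, where they show peptides from outside the cell to CD4 T cells, and HSCs have been described to carry them too. Interferon raises both classes, with NLRC5 as the main transcriptional activator of class I and CIITA as that of class II.

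Mean levels are given in RPKM, read counts corrected for gene length and for the depth of the library, as deposited by the authors. The median depth of a mouse was 4.28 to 5.32 M mapped reads per cell, and that of a plate 3.99 to 5.33 M, except in PEM mouse 2, with 3.20 M on plate 1 and 12.2 M on plate 2. The median percent of mitochondrial reads was 6.41% and 6.69% in the PLT mice, 4.01% and 4.03% in the PEM pair and 6.06% and 5.34% in the MUL pair, so both PLT mice were the highest. Its part in the differences of PLT mice described here was not tested. The median number of detected genes was 1869 and 2596 in the PLT mice, 3186 and 2752 in the PEM pair and 2210 and 2553 in the MUL pair. PEM mouse 2 gave 25 cells and the other mice 78 to 93, so its values are the least precise. Ly6a, which encodes the gate's Sca-1, averaged 191 to 538 RPKM in the mice, and Kit 30.2 to 108.7. Slamf1, which encodes CD150, averaged 78.3 and 35.1 RPKM in the PLT mice, 65.8 and 41 in the PEM pair and 19.97 and 4.25 in the MUL pair. The titles of both MUL mice share a first prefix, and each other mouse has its own. The sources used here do not say what it stands for, and whatever it marks cannot be told apart from the group. PLT mouse 2 and PEM mouse 2 were recorded as female and the 4 others as male, with no word on whether this is the sex of donor or recipient.

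The class I heavy chains H2-K1 and H2-D1, like Tap2, had lower mean levels in both PLT mice than in the 4 other mice. Their upstream sequences are shown because the pair shares an NF-kappaB motif found upstream of few other genes, with those of B2m and H2-Aa for comparison with the light chain and with class II. Each is the 250 bases before the annotated start, from RefSeq on GRCm38.p6, written from 5′ to 3′ on the strand of the gene. Capitals mark matches on either strand to CCAAT (the core of the Y box, bound by NF-Y), TGACG (the core of the X2 box, bound by CREB and ATF factors), GGGATTCCC (an NF-kappaB site) and GAANNGAAA (an interferon regulatory factor site). The windows are chr17:34000348-34000597 on the minus strand for H2-K1, chr17:35262844-35263093 on the plus strand for H2-D1, chr2:122147437-122147686 on the plus strand for B2m and chr17:34287824-34288073 on the minus strand for H2-Aa.
H2-K1: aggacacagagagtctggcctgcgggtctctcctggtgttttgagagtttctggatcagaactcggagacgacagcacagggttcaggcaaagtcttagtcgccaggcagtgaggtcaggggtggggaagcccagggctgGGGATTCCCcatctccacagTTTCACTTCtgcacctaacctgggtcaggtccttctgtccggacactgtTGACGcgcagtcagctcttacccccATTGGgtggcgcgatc
H2-D1: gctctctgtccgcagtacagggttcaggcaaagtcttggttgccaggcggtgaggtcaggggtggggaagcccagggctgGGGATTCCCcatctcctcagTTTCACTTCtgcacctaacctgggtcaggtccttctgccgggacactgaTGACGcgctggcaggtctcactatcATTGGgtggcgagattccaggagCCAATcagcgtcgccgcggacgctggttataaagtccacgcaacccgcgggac
B2m: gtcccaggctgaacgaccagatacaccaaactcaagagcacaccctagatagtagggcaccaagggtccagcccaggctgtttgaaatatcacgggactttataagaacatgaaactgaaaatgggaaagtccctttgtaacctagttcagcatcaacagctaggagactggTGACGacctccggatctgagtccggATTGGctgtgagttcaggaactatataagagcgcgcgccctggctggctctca
H2-Aa: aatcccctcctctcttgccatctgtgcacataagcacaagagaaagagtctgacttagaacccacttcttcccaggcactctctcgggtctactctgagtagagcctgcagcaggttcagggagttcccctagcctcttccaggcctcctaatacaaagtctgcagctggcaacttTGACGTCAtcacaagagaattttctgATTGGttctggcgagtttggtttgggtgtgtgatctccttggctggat
The H2-K1 and H2-D1 windows held the NF-kappaB site, from -110 to -102 and from -170 to -162 of their starts, and the interferon regulatory factor site downstream of it, in both as TTTCACTTC. Of all 32851 promoter windows of this length, 0.301% (99 windows) held the NF-kappaB letters and 6.31% the interferon regulatory factor letters. CCAAT was found in all 7 members with an entry (B2m, H2-K1, H2-D1, H2-T23, Tap1, Tapbp and H2-Aa), and in 33.8% of all windows. TGACG was found in B2m, H2-K1, H2-D1, Tap1 and H2-Aa, and in 17.8% of all windows. In H2-Aa it overlaps its own reverse complement, as TGACGTCA. These are matches of the stated letters alone, and binding was not measured. Other forms of the sites were not sought, so B2m and H2-Aa are not shown to lack NF-kappaB or interferon regulatory factor sites.

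B2m, the light chain that all classical class I molecules share (chromosome 2, mm10), had the highest mean level of all genes in the table. Its mean was 5784 and 10245 RPKM in the PLT mice, 7866 and 8237 RPKM in the PEM pair and 7667 and 7056 RPKM in the MUL pair. The PLT mice were the lowest and the highest of the 6, so the groups overlapped. No cell lacked it, with a range of 174.3 to 27780.7 RPKM and at least 100 RPKM in all 458 cells. The coefficient of variation over the cells of a mouse was 0.367 to 0.521, the lowest range among the 10 genes.

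H2-K1, a classical class I heavy chain that presents peptides to CD8 T cells, had its lowest values in the PLT mice. It averaged 1234 and 700.4 RPKM in the PLT mice, 2139 and 1345 RPKM in the PEM pair and 1542 and 2081 RPKM in the MUL pair. Both PLT mice lay below the 4 others, by a small gap between PLT mouse 1 and PEM mouse 2. The group means were 967 ± 377 RPKM in PLT, 1742 ± 562 RPKM in PEM and 1812 ± 381 RPKM in MUL (SD, n = 2 mice each). H2-D1, the second classical heavy chain of this strain, averaged 325 and 239.6 RPKM in the PLT mice, 619.8 and 578 RPKM in the PEM pair and 429 and 666 RPKM in the MUL pair. Again both PLT mice lay below the 4 others. Transcripts of H2-K1 and H2-D1 have 50-base stretches in common, as given below. The part of shared reads in the lower levels of both genes was not tested. H2-T23, the heavy chain of Qa-1, which shows leader peptides of other class I chains to NK cell receptors, did not separate the groups. It averaged 448 and 300.1 RPKM in the PLT mice, 442 and 407 RPKM in the PEM pair and 329.8 and 478 RPKM in the MUL pair.

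The heavy chains were found in nearly every cell at 1 RPKM or more, so at this level the mice hardly differed in the share of cells. At 1 RPKM or more, H2-K1 was present in 92 of 93 and 84 of 84 cells of the PLT mice, 93 of 93 and 25 of 25 cells of the PEM pair and 77 of 78 and 85 of 85 cells of the MUL pair. H2-D1 fell short of 1 RPKM in 2 of the 458 cells, both of PLT mouse 1, and H2-T23 in none. A minority of cells had little of a heavy chain that the other cells had in plenty. H2-K1 was under 100 RPKM in 29 cells and H2-D1 in 80 cells, against medians of 1351 and 408 RPKM.

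**Figure D1:**
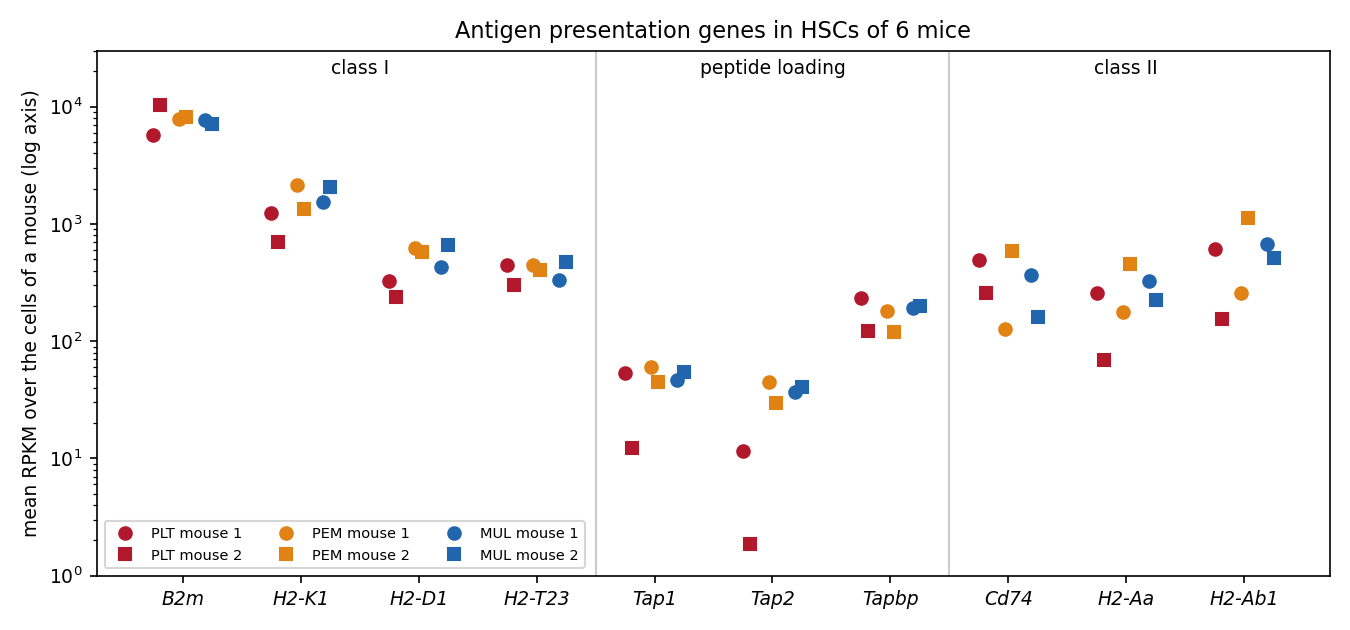
Mean RPKM (log axis) of the 10 genes over the cells of each mouse, with 1 point per mouse and the groups PLT, PEM and MUL from left to right within each gene. B2m lies between 5784 and 10245 RPKM in every mouse, H2-K1, H2-D1 and Tap2 have both PLT mice below the 4 others, and Tap2 is at 1.88 RPKM in PLT mouse 2.

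Tap1 and Tap2 form the transporter that pumps peptides into the endoplasmic reticulum, and neither protein transports without the other. Their transcripts were far below those of the class I chains and reached 1 RPKM in a minority of cells, Tap1 in PEM mouse 1 excepted. Tap2 averaged 11.6 and 1.88 RPKM in the PLT mice, 44.9 and 29.6 RPKM in the PEM pair and 36.8 and 40.6 RPKM in the MUL pair. Both PLT mice were the lowest, and the 4 others lay within a narrow band. Tap1 averaged 53.01 and 12.2 RPKM in the PLT mice, 60.5 and 44.9 RPKM in the PEM pair and 46.5 and 54.6 RPKM in the MUL pair. Here only PLT mouse 2 was low, while PLT mouse 1 lay among the others.

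The share of cells at 1 RPKM or more was lowest in both PLT mice for Tap2 and, at this level, for Tap1. Tap2 reached 1 RPKM in 15.1% (exact 95% interval 8.48 to 23.97) of the cells of PLT mouse 1 and 5.95% (1.96 to 13.3) of those of PLT mouse 2. The shares were 47.3% (36.9 to 57.9) and 44% (24.4 to 65.1) in the PEM pair and 35.9% (25.3 to 47.6) and 40% (29.5 to 51.2) in the MUL pair. These intervals cover counting error only. For Tap1 the shares were 21.5% and 20.2% in the PLT mice, 52.7% and 40% in the PEM pair and 34.6% and 40% in the MUL pair. With any value above 0 counted, the order for Tap1 was another, at 77.4% and 36.9% in the PLT mice, 95.7% and 76% in the PEM pair and 67.9% and 80% in the MUL pair. By plate, too, the Tap1 shares at 1 RPKM overlapped, since plate 1 of PLT mouse 2 had 32.6%, against 27.3% on plate 2 of PEM mouse 2 and 31.4% on plate 2 of MUL mouse 1. The Tap2 shares also overlapped by plate, with 19.1% on plate 1 of PLT mouse 1 and 18.2% on plate 2 of PEM mouse 2. In PLT mouse 1 the few cells with Tap1 had much of it, with a mean of 246 RPKM over the cells at 1 RPKM or more, against 60.1 in PLT mouse 2, 114.5 and 112.1 in the PEM pair and 134.1 and 136.3 in the MUL pair. For Tap2 the same quantity was 76.6 and 30.8 RPKM in the PLT mice, 94.6 and 67.2 in the PEM pair and 102.5 and 101.3 in the MUL pair. With 2 mice against 2, an exact two-sided permutation test cannot go below p = 0.333, so the shares were not tested.

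Both transporter genes were at 1 RPKM or more in the same cell in 23.4% of all cells, Tap1 alone in 50 cells, Tap2 alone in 29 and neither in 272. The cells with both made up 15.1% and 2.38% of the cells of the PLT mice, 39.8% and 32% of the PEM pair and 26.9% and 29.4% of the MUL pair. In some of the cells with both, 1 gene was far above the other, as in a cell of PLT mouse 1 with Tap1 at 882 RPKM and Tap2 at 7.10. Over the cells of a mouse, Tap1 and Tap2 had a mean Spearman correlation of 0.51 (0.13 to 0.64 in the 6 mice, 25 to 93 cells each). Of the 50-base stretches of Tap1 transcripts 0.44% occur in Tap2, and of those of Tap2 0.65% occur in Tap1. The part of shared reads in the co-detection and the correlation was not tested. The cells of a mouse share their plates and differ in how many genes were detected, a number with which Tap1 and Tap2 had mean correlations of 0.29 and 0.35. Among cells with 1800 to 3000 detected genes, an alternative chosen after the data were seen, Tap2 in PLT minus MUL was -2.39 on the log2 scale, against -2.72 over all cells. In PEM mouse 2, Tap2 averaged 52.7 RPKM on plate 1 (14 cells) and 0.278 RPKM on plate 2 (11 cells), the plate of greater depth.

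**Figure D2:**
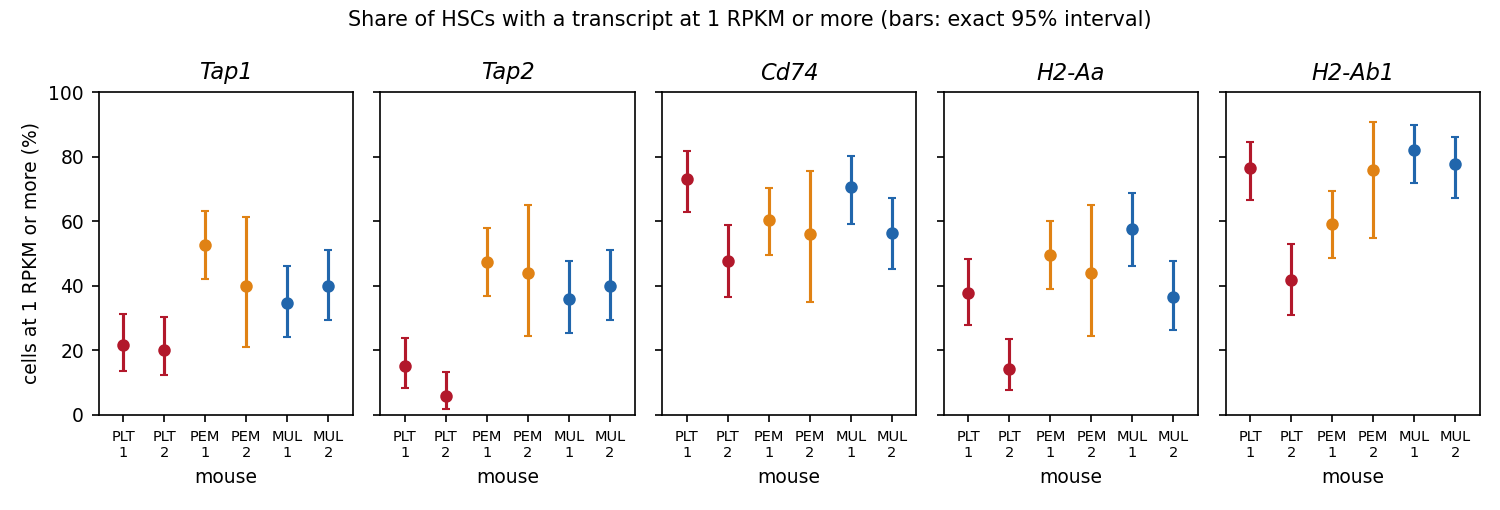
Percent of the cells of each mouse with Tap1, Tap2, Cd74, H2-Aa or H2-Ab1 at 1 RPKM or more, with exact 95% intervals that cover counting error. At this level both PLT mice have the lowest points for Tap1 and Tap2, at 5.95% and 15.1% for Tap2, while for Cd74, H2-Aa and H2-Ab1 the PLT mice differ from each other.

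Tapbp encodes tapasin, which holds an empty class I molecule at the transporter until a peptide fits. It was at 1 RPKM or more in 96.4% to 100% of the cells of each mouse. Its mean was 234.5 and 121.5 RPKM in the PLT mice, 179 and 120.1 RPKM in the PEM pair and 190.1 and 199 RPKM in the MUL pair, and the PLT mice overlapped both other groups. Of its exonic bases, 29.02% also lie in exons of another gene, most of them the antisense gene Gm19412, and for Tap2 the share was 18.5% (Gm15821 and Gm20496). No source used here states whether the counting used strand, so reads of these partners may be included.

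The class II genes split the cells, most of which had either much or hardly any of each transcript. H2-Aa, the alpha chain of I-A, was under 1 RPKM in 60.7% of the 458 cells and reached 100 RPKM in 27.1%, with 17 cells between 10 and 100. H2-Ab1, its beta chain, was under 1 RPKM in 32.3% of cells, between 10 and 100 RPKM in 11 cells and at 100 RPKM or more in 49.3%. Cd74, the invariant chain that guides class II molecules through the cell, was under 1 RPKM in 38.6%, between 10 and 100 in 16.6% and at 100 or more in 37.6%. The coefficient of variation of these genes over the cells of a mouse was 1.18 to 3.75.

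**Figure D3:**
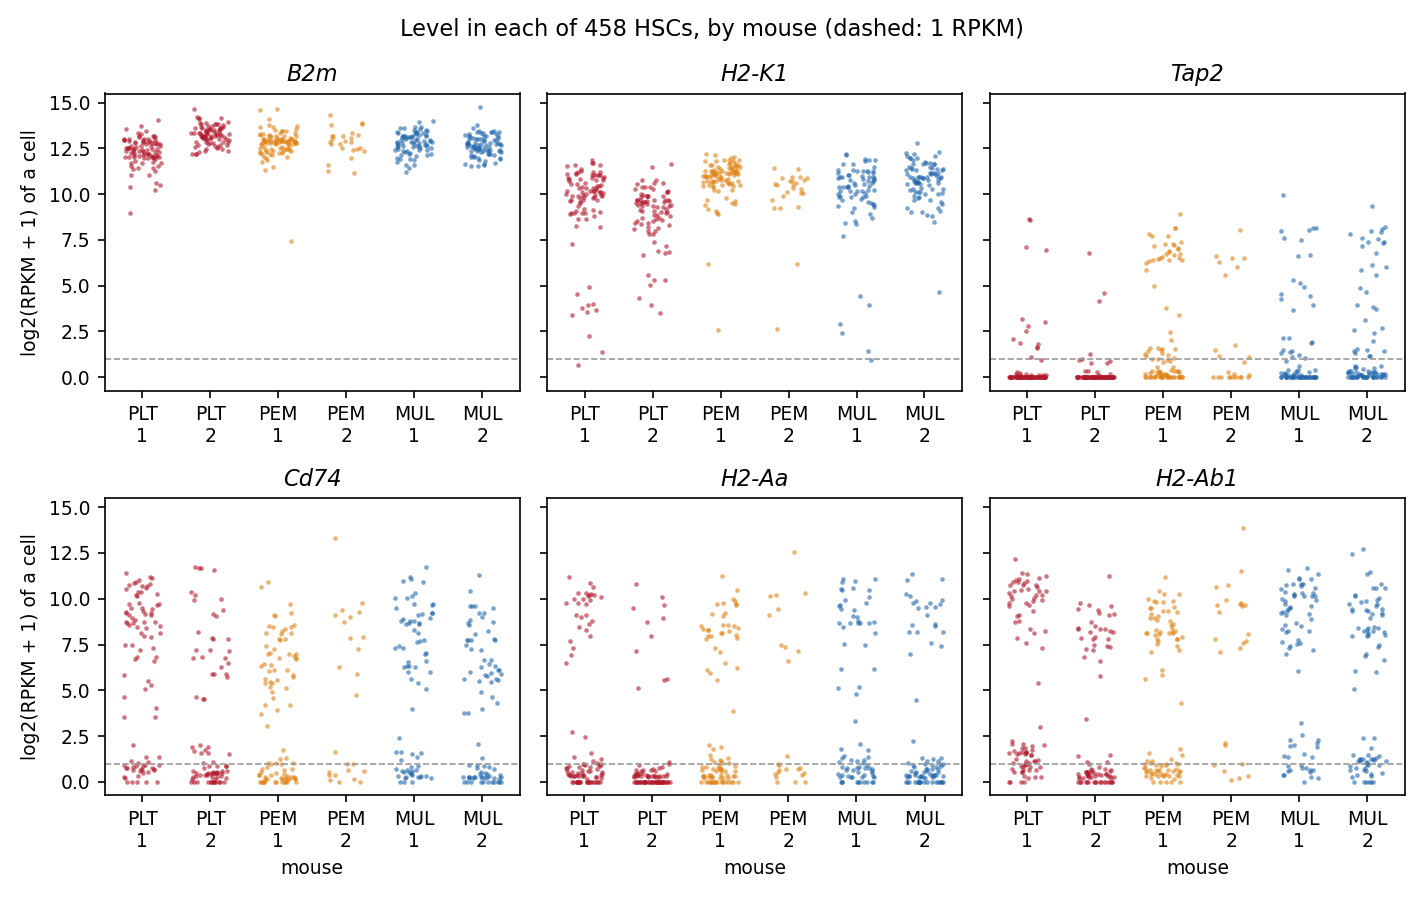
Level of 6 genes in each cell as log2(RPKM + 1), with 1 point per cell and the mice in the order PLT, PEM and MUL. B2m forms 1 band in all 6 mice, whereas Cd74, H2-Aa and H2-Ab1 split into cells near or under the dashed line at 1 RPKM and cells far above it, with 17 cells for H2-Aa, 11 for H2-Ab1 and 76 for Cd74 between 10 and 100 RPKM.

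Mean levels of the class II genes differed widely between the 2 PLT mice and between the 2 PEM mice, and for Cd74 between the 2 MUL mice as well. H2-Ab1 averaged 610.5 and 154.01 RPKM in the PLT mice, 256 and 1119 RPKM in the PEM pair and 668 and 508 RPKM in the MUL pair. H2-Aa averaged 255 and 69.4 RPKM in the PLT mice, 176.9 and 458 RPKM in the PEM pair and 323 and 224 RPKM in the MUL pair. For both genes PLT mouse 2 was the lowest of the 6. PEM mouse 2 was the highest, a rank that rested on 1 cell with B cell markers, without which it averaged 546 RPKM for H2-Ab1 and 227 RPKM for H2-Aa, below PLT mouse 1 and MUL mouse 1. Cd74 averaged 489 and 256.5 RPKM in the PLT mice, 127.03 and 593 RPKM in the PEM pair and 366 and 161.5 RPKM in the MUL pair. Its order differed, with PEM mouse 1 the lowest, and the groups overlapped for all 3 genes. Without the cell with B cell markers, Cd74 averaged 186 RPKM in PEM mouse 2. Much of the difference within the PEM pair thus rested on that cell for all 3 genes.

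In the share of cells, too, PLT mouse 2 was the lowest of the 6 mice for all 3 genes. H2-Aa reached 1 RPKM in 37.6% (27.8 to 48.3) of the cells of PLT mouse 1 and 14.3% (7.61 to 23.6) of those of PLT mouse 2, 49.5% and 44% of the PEM pair and 57.7% and 36.5% of the MUL pair. H2-Ab1 did so in 76.3% and 41.7% of the cells of the PLT mice, 59.1% and 76% of the PEM pair and 82.1% and 77.6% of the MUL pair. For Cd74 the shares were 73.1% and 47.6% in the PLT mice, 60.2% and 56% in the PEM pair and 70.5% and 56.5% in the MUL pair. In each case the exact 95% interval of PLT mouse 2 lay below that of PLT mouse 1. For Cd74 this difference was on plate 1, with 89.4% in PLT mouse 1 and 39.5% in PLT mouse 2, while plate 2 had 56.5% and 56.1%, both above the 50% on plate 2 of MUL mouse 2.

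All 3 class II genes were at 1 RPKM or more in 29.5% of the 458 cells and none in 84 cells. The cells with all 3 were 29 of 93 and 8 of 84 in the PLT mice, 32 of 93 and 7 of 25 in the PEM pair and 36 of 78 and 23 of 85 in the MUL pair. The cells with none were 8 of 93 and 32 of 84 in the PLT mice, 20 of 93 and 4 of 25 in the PEM pair and 9 of 78 and 11 of 85 in the MUL pair. The most frequent incomplete pattern was Cd74 with H2-Ab1 and without H2-Aa, in 94 cells, followed by H2-Ab1 alone in 64. H2-Aa with neither partner was found in 12 cells. A transcript under 1 RPKM in a single cell is not shown to be absent.

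**Figure D4:**
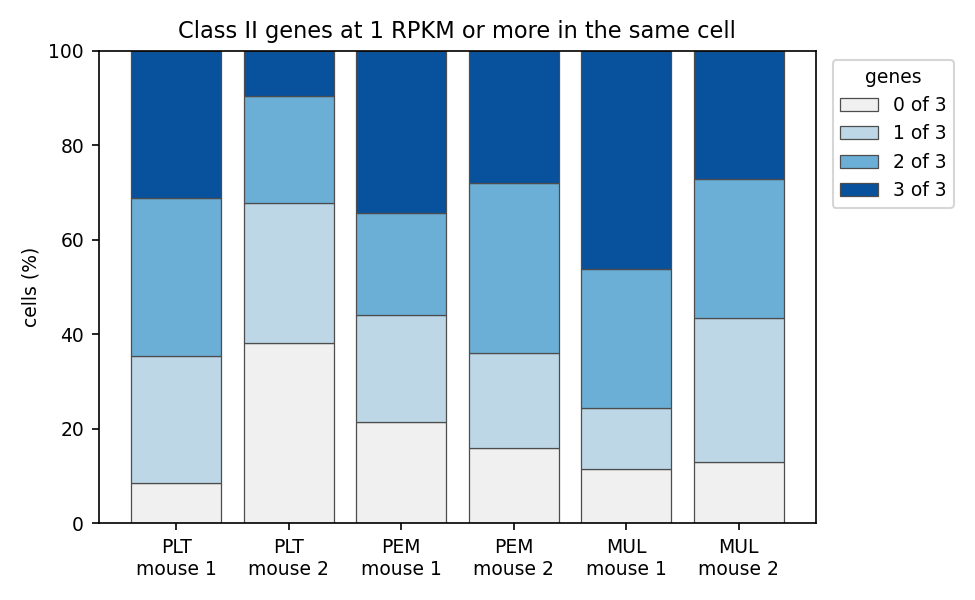
Percent of the cells of each mouse with 0, 1, 2 or 3 of the class II genes Cd74, H2-Aa and H2-Ab1 at 1 RPKM or more, stacked to 100%, with the mice in the order PLT, PEM and MUL. PLT mouse 2 has the largest part with none (38.1%) and MUL mouse 1 the largest with all 3 (46.2%).

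A single cell of PEM mouse 2 contributed much of that mouse's class II means. It held the highest Cd74 (10370 RPKM), H2-Aa (6004 RPKM) and H2-Ab1 (14876 RPKM) of all 458 cells, together with B cell genes: Cd79a and Cd79b of the B cell receptor at 1994 and 4640 RPKM, and Ms4a1 (CD20) at 747 RPKM. Its Pax5, a B cell transcription factor, was listed at 0. Without this cell the Cd74 mean of PEM mouse 2 was 186 RPKM over 24 cells. Of the 6 B cell markers, Cd79b alone exceeded 0 as a mean in the 5 other mice, where the list summed to 48.8 and 24.9 RPKM in the PLT mice, 50.2 RPKM in PEM mouse 1 and 35.9 and 31.5 RPKM in the MUL mice, against 331 RPKM in PEM mouse 2. The 8 dendritic cell markers summed to 3.71 and 6.83 RPKM in the PLT mice, 3.30 and 11.4 RPKM in the PEM pair and 7.92 and 16.5 RPKM in the MUL pair, and Itgax (CD11c), Cd209a and Batf3 were at or near 0 in every mouse. Flt3, a receptor that multipotent progenitors carry as well, reached 9.43 RPKM in PEM mouse 2 and 13.2 RPKM in MUL mouse 2, and Xcr1 averaged 1.35 to 3.65 RPKM and was at 1 RPKM or more in 86.7% of all cells. The 8 macrophage and monocyte markers summed to 488 and 530.0 RPKM in the PLT mice, 536 and 1322 RPKM in the PEM pair and 470.2 and 648 RPKM in the MUL pair, nearly all of it Lyz2 and Cd68, and Csf1r was at or near 0 in every mouse. PEM mouse 2 also stood apart in 2 further lists. The 8 neutrophil markers summed to 2929 and 154.2 RPKM in the PLT mice, 30.4 and 12602 RPKM in the PEM pair and 92.6 and 772 RPKM in the MUL pair, most of it S100a8 and S100a9, with Elane and Mpo at 0 in every mouse. The 5 erythroid markers in the table summed to 15.7 and 60.1 RPKM in the PLT mice, 18.9 and 471 RPKM in the PEM pair and 127.13 and 36.7 RPKM in the MUL pair. The fit between groups was also repeated without cells holding 3 or more markers above 0 from 1 list of mature blood cells. These lists were those of B cells, macrophages and monocytes, neutrophils, T and NK cells and erythroid cells. This removed 25 of 93 and 19 of 84 cells of the PLT mice and 30 of 93 and 10 of 25 of the PEM pair. In the MUL pair it removed 5 of 78 and 17 of 85. The cell with B cell markers was among the cells removed. Cd74 and H2-Aa turned negative in PEM minus MUL, as given below, and they also did so with that cell alone left out. The part of the lists in the class II values was not tested further.

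Class I, with B2m counted, exceeded class II in every mouse. The mean of log2(mean RPKM + 1) over the 4 class I genes minus that over the 3 class II genes was 1.25 and 2.59 in the PLT mice, 3.02 and 0.92 in the PEM pair and 1.40 and 2.47 in the MUL pair. The groups overlapped entirely. Without the cell with B cell markers the value of PEM mouse 2 was 2.14. With B2m left out, the difference was 0.41 and 1.39 in the PLT mice, 2.22 and 0.019 in the PEM pair and 0.49 and 1.72 in the MUL pair, so in PEM mouse 2 the classes were nearly level. Its mean over the 6 mice was then 1.04 on the log2 scale, against 1.94 with B2m.

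Between PLT and MUL mice the question is how HSCs of the platelet fate differ from those of the multilineage fate, and none of the 10 genes passed the test. The test was limma on log2(mean RPKM + 1) of the 6 mice with Benjamini-Hochberg adjustment over 11337 genes, of which 0.00882% passed an adjusted p of 0.05. Tap2 had the largest difference of the 10, at -2.72 ± 0.74 (SE) on the log2 scale, with both PLT mice below both MUL mice (unadjusted p = 0.00597, adjusted p = 0.480). By unadjusted p, H2-D1 came next at -0.94 ± 0.33 (unadjusted p = 0.0210, adjusted p = 0.527) and H2-K1 at -0.95 ± 0.37 (unadjusted p = 0.0323, adjusted p = 0.560). These 3 had an unadjusted p under 0.05 and were lower, as were 5.96% of all genes tested (8.41% in either direction). Both PLT mice lay below both MUL mice for the same 3, and for 24.9% of all genes. H2-Aa was -1.01 ± 0.65, Tap1 -0.95 ± 0.66 and H2-Ab1 -0.92 ± 0.77 on the log2 scale, with mice that overlapped. Cd74 was +0.54 ± 0.71, Tapbp -0.20 ± 0.41, H2-T23 -0.11 ± 0.34 and B2m +0.07 ± 0.30. The median over the 10 genes was -0.93 and over all genes tested -0.18. Without PLT mouse 2, Tap2 was -1.66, H2-K1 -0.54, H2-Aa -0.08, Tap1 +0.07 and H2-Ab1 +0.07.

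Against PEM mice, the same PLT mice gave much the same values, and the 2 comparisons share them. Tap2 was -2.64 ± 0.74 on the log2 scale in PLT minus PEM (unadjusted p = 0.00703), H2-D1 -1.10 ± 0.33 (p = 0.00982) and H2-K1 -0.87 ± 0.37 (p = 0.0453), with adjusted p-values of 0.545, 0.545 and 0.592 in limma. Of all genes tested, 0% passed adjustment, 8.37% had an unadjusted p under 0.05 and 5.88% had one and were lower. For these 3 genes both PLT mice lay below both PEM mice, as for 21.9% of all genes. H2-Aa was -1.09 ± 0.65, Tap1 -0.99 ± 0.66 and H2-Ab1 -0.80 ± 0.77, and the other 4 genes lay between -0.21 and +0.37. Without PLT mouse 2, Tap2 was -1.58, H2-K1 -0.46, H2-Aa -0.16, Tap1 +0.02 and H2-Ab1 +0.19. Over all 6 mice, both PLT mice were below the 4 others for 3 of the 10 genes and for 12% of all genes tested. On plate 2 of each mouse alone Tap2 was -0.68 in PLT minus PEM.

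Between PEM and MUL mice none of the 10 genes had an unadjusted p under 0.05 in limma, against 5.59% of all genes tested (2.79% lower in PEM), of which 0% passed adjustment. The values ran from -0.41 ± 0.41 on the log2 scale for Tapbp to +0.17 ± 0.71 for Cd74, with adjusted p-values of 0.938 and 0.991. The intervals were wide. For H2-D1 (+0.16) the 95% interval ran from -0.59 to +0.92, and for Tap2 (-0.08) from -1.79 to +1.62. Both PEM mice were above both MUL mice for B2m (17.5% of all genes) and below them for Tapbp (18.3%). Without the cell with B cell markers Cd74 turned to -0.66 and H2-Aa, at +0.08 with it, to -0.42.

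**Figure D5:**
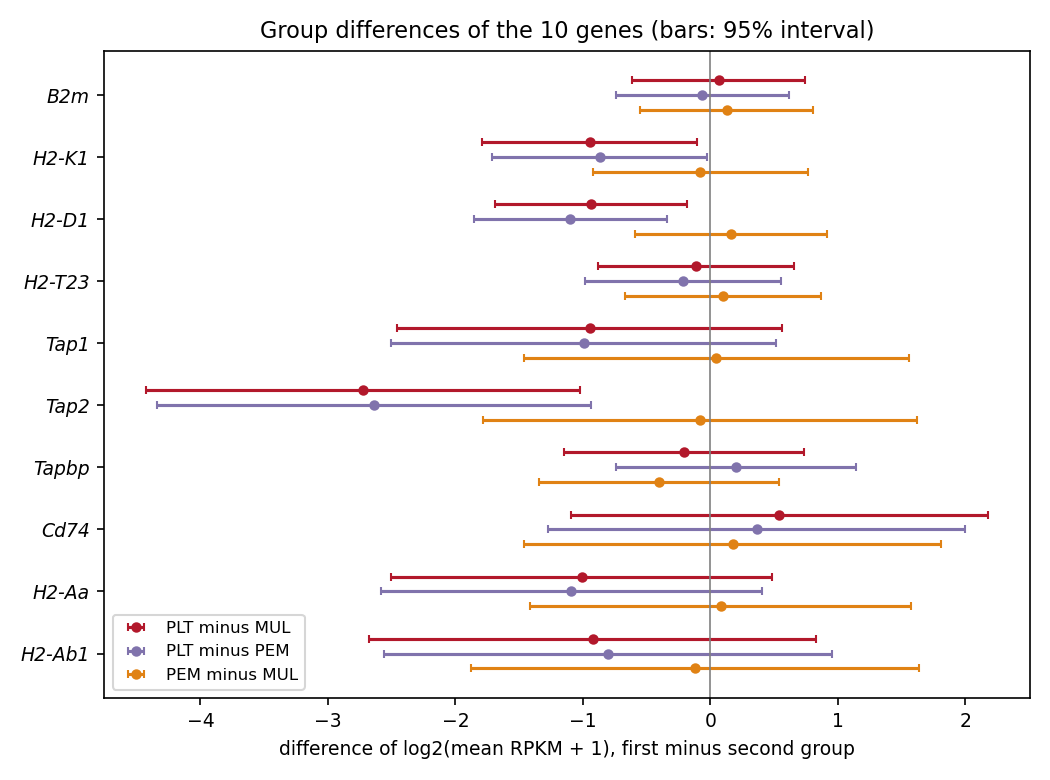
Difference of log2(mean RPKM + 1) for each gene in PLT minus MUL, PLT minus PEM and PEM minus MUL, with 95% intervals from limma before any adjustment for the number of genes. The intervals of H2-K1, H2-D1 and Tap2 lie below 0 in both comparisons of PLT, and no value passed adjustment.

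Other genes of antigen presentation, from lists set beside the 10, gave 0 calls in limma after adjustment in any comparison. Of 18 other class I heavy chains, 11 were tested, and all 11 had a negative value in PLT minus MUL, as did 6618 of the 11337 genes tested, with a median of -0.95 on the log2 scale and 2 at an unadjusted p under 0.05 (5.96% of all genes were lower with such a p). The most abundant were Cd1d1, which presents lipids, H2-M3, which presents formylated peptides, and H2-Q4. H2-M3 averaged 35.3 and 32.5 RPKM in the PLT mice, 84.2 and 89.2 RPKM in the PEM pair and 73.03 and 118.4 RPKM in the MUL pair. Both PLT mice lay below the 4 others (PLT minus MUL -1.43 ± 0.41, unadjusted p = 0.00776, adjusted p = 0.480). H2-Q4 did so too, at 55.6 and 27.3 RPKM in the PLT mice, 81.5 and 112.3 RPKM in the PEM pair and 69.1 and 83.9 RPKM in the MUL pair. Cd1d1 averaged 46.996 and 23.9 RPKM in the PLT mice, 79.8 and 13.1 RPKM in the PEM pair and 118.2 and 174.7 RPKM in the MUL pair. H2-Q genes share sequence with the members: 5.87% of the 50-base stretches of H2-D1 transcripts occur in H2-Q1 and 5.18% of those of H2-K1 in H2-Q10, so reads may have been split between them.

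Genes of peptide supply gave values on both sides of 0. Of 12 genes listed for peptide supply and loading, 6 were higher and 6 lower in PLT minus MUL. None had an unadjusted p under 0.05 in limma, and the median was 0.01 on the log2 scale. Psmb8, a subunit of the immunoproteasome, averaged 453 and 502 RPKM in the PLT mice, 521 and 584 RPKM in the PEM pair and 386 and 498 RPKM in the MUL pair. Pdia3, a disulfide isomerase of the loading complex, averaged 474.6 to 631 RPKM in the 6 mice. Canx (calnexin), which helps new heavy chains fold, had 853 and 364 RPKM in the PLT mice, 303 and 256 RPKM in the PEM pair and 645 and 492 RPKM in the MUL pair.

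In the class II pathway, 11 of 14 listed genes were tested, of which 1 was higher and 10 lower in PLT minus MUL, with a median of -0.69 on the log2 scale. Of all 11337 genes, 4719 were higher and 6618 lower. The list had 3 genes at an unadjusted p under 0.05, all lower, against 5.96% of all genes. H2-DMa, a chain of the editor that exchanges the class II placeholder for peptide, averaged 129.9 and 110.3 RPKM in the PLT mice, 184 and 174.6 RPKM in the PEM pair and 206 and 160.995 RPKM in the MUL pair, with both PLT mice the lowest. H2-DMb1, its partner, averaged 97.9 and 74.2 RPKM in the PLT mice, 110.1 and 93.9 RPKM in the PEM pair and 131.5 and 131.07 RPKM in the MUL pair. H2-Eb1, the beta chain of I-E, averaged 136.4 and 16.7 RPKM in the PLT mice, 113.4 and 265 RPKM in the PEM pair and 113.8 and 45.5 RPKM in the MUL pair. PLT mouse 2 was the lowest, as for H2-Ab1. Without the cell with B cell markers PEM mouse 2 averaged 119.3 RPKM, below PLT mouse 1. The alpha chain of I-E is listed as the pseudogene H2-Ea-ps, which was above 0 in 1 cell. The H2-Eb1 transcript thus does not show that I-E was made.

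Among 13 regulators, 6 were higher and 7 lower in PLT minus MUL, against 4719 higher and 6618 lower of all genes tested. In limma 1 of the 13 had an unadjusted p under 0.05, against 8.41% of all genes in either direction and 5.96% lower. That one was Irf1, an interferon-induced factor that activates class I genes. It averaged 8.06 and 11.2 RPKM in the PLT mice, 38.9 and 39.5 RPKM in the PEM pair and 41.03 and 52.4 RPKM in the MUL pair. Both PLT mice were below the 4 others, as for 12% of all genes tested. In limma Irf1 was at -2.17 ± 0.49 in PLT minus MUL (unadjusted p = 0.00196, adjusted p = 0.461). In PLT minus PEM it was at -1.94 ± 0.49 (unadjusted p = 0.00387, adjusted p = 0.539). Irf1 was at 1 RPKM or more in 21.8% of all cells. Nfyb, a subunit of the Y box factor, averaged 14.9 to 105.3 RPKM, with PEM mouse 2 the highest. Nlrc5 averaged 11.1 to 21.7 RPKM. Ciita did not exceed 2.41 RPKM in any mouse, was listed at 0 in PLT mouse 1 and was at 1 RPKM or more in 1.97% of cells, while H2-Ab1 averaged at least 154.01 RPKM.

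Of 24 genes of interferon signalling and its targets, 23 were tested, with 7 higher and 16 lower in PLT minus MUL and a median of -0.56 on the log2 scale. Over all genes tested it was 4719 higher and 6618 lower, with a median of -0.18. At an unadjusted p under 0.05, 1 of the list was higher and 4 were lower, against 8.41% of all genes in either direction and 5.96% lower. Ifitm3 and Ifitm1, which encode antiviral membrane proteins, were the most abundant. Ifitm3 averaged 1552 and 1867 RPKM in the PLT mice, 2059.8 and 1812 RPKM in the PEM pair and 991 and 1171 RPKM in the MUL pair, with both PLT mice above both MUL mice, as for 14.8% of all genes. Ifitm1 averaged 1555 and 1399 RPKM in the PLT mice, 2508 and 902 RPKM in the PEM pair and 1253 and 1497 RPKM in the MUL pair. Igtp, an interferon-induced GTPase, averaged 161.1 and 138.2 RPKM in the PLT mice, 248 and 276 RPKM in the PEM pair and 216 and 284 RPKM in the MUL pair, with both PLT mice the lowest.

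The genes whose levels over cells were most like those of 3 members were sought among 4070 genes found at 1 RPKM or more in at least 20% of cells. Likeness was the mean of 6 within-mouse Spearman correlations, given as a description, since cells of a mouse share plates and differ in depth. For B2m the closest were Ifitm1 (0.40), Ifitm3 (0.39), Rpl32 (0.37), Gm6251 (0.37) and Rps14 (0.34), all weak. For H2-D1 they were H2-Q1 (0.79), H2-Q10 (0.76), Gm7030 (0.74), Gm8909 (0.71) and Gm11127 (0.67). H2-Q1 and Gm7030 are among the genes that share the most 50-base stretches with H2-D1. Only those genes were listed, so H2-Q10, Gm8909 and Gm11127 may share stretches with it too. The part of shared reads in these correlations was not tested. For Cd74 the closest were H2-Ab1 (0.56), H2-Aa (0.41), Cd53 (0.35), H2-Eb1 (0.33) and Ltb (0.32). Of these, H2-Ab1, H2-Aa and H2-Eb1 are class II genes. H2-K1 and H2-D1 had 0.36, H2-Aa and H2-Ab1 0.32, and H2-T23 had at most 0.19 with any other member. Of the 50-base stretches of H2-K1 transcripts 4.08% occur in H2-D1, and of those of H2-D1 5.44% occur in H2-K1. The part of shared reads in the correlation of H2-K1 with H2-D1 was not tested.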

How the data were processed

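The table holds RPKM values made by the authors, with TopHat, featureCounts and the mm10 build per the submitters' processing notes; versions, gene lengths and the handling of reads that map to several genes are not given in the sources used here. A second deposited table gives the count of mapped reads and of detected genes per cell and the percent of mitochondrial reads, per the file headers. Cells were assigned to mice by the prefix of their title, and no cell was removed. RPKM was averaged over the cells of a mouse, and log2(mean RPKM + 1) of the 6 mice was tested with limma 3.58.1 in R 4.3.3 (1 mean per group, trended eBayes variance, 3 residual degrees of freedom per gene). On this scale changes of low genes come out too small. The test took genes averaging 1 RPKM or more in 2 or more mice, 11337 in all, with all 10 members among them. Benjamini-Hochberg adjustment used a threshold of 0.05, and the fit was tested on simulated data. The p-values measure the spread between 2 mice a group. Exact Clopper-Pearson 95% intervals cover counting error over cells only. Genes named from each list were its 3 most abundant and any past the threshold. Nlrc5 and Ciita, the main activators of class I and class II, and the cell type markers were named outside this rule. Other genes are said to be chosen after their values were seen. A gene that this rule names among the regulators is not reported here. The 10 members and the lists were chosen with earlier results of these data known. Positions came from GENCODE M21 on mm10, overlaps from its exons and shared stretches from 50-base words of its transcripts. Promoter windows from RefSeq matched 7 of the 10 members, all but Tap2, Cd74 and H2-Ab1. Gapdh was listed at 0 in 45 of the 458 cells, so a value of 0 is not taken as absence.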

Additional observations from a re-analysis of the deposited data

How the results depend on the processing

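The fit was repeated under 20 alternatives, 3 of them chosen after seeing the data (without cells with mature markers, without the cell with B cell markers, and cells with 1800 to 3000 detected genes). Of 600 values for the 10 genes, 541 kept their direction, 59 turned and 0 changed their side of the threshold. H2-K1, H2-D1 and Tap2 kept a negative value under all 20 alternatives in both comparisons of PLT, with adjusted p-values of 0.322 to 0.994 for PLT minus MUL and 0.329 to 0.964 for PLT minus PEM. The values that turned were of genes with small or overlapping differences, and the cause was not tested. With quantile normalization the sign turned for B2m -0.48 in PLT minus MUL and for B2m -0.48, H2-D1 -0.11, H2-T23 -0.099, H2-Aa -0.063 in PEM minus MUL. With median-ratio scaling the sign turned for H2-T23 +0.055 in PLT minus MUL and for B2m +0.095 in PLT minus PEM. With the mean of log2 values over cells the sign turned for Cd74 -0.088 in PLT minus MUL and for H2-K1 +0.087, Tap2 +0.47, Cd74 -0.45 in PEM minus MUL. With plate 1 alone the sign turned for H2-T23 -0.027, Tap1 -0.18, Tap2 +0.12, Cd74 -0.72, H2-Aa -0.39 in PEM minus MUL. With plate 2 alone the sign turned for B2m -0.053, H2-T23 +0.0701 in PLT minus MUL and for Cd74 -0.22 in PLT minus PEM and for H2-Ab1 +0.35 in PEM minus MUL. With the loss of cells with mature markers the sign turned for Tap1 -0.027, Tap2 +0.30, Cd74 -0.43, H2-Aa -0.10 in PEM minus MUL. With the loss of the cell with B cell markers the sign turned for Cd74 -0.66, H2-Aa -0.42 in PEM minus MUL. With cells with 1800 to 3000 detected genes the sign turned for Tapbp -0.058 in PLT minus PEM and for H2-K1 +0.0299, Cd74 -0.044, H2-Aa -0.095 in PEM minus MUL. Leaving out each mouse in turn turned a sign in PLT minus MUL for B2m -0.35 to +0.48, H2-T23 -0.40 to +0.17, Tap1 -1.96 to +0.071, Tapbp -0.68 to +0.27, Cd74 -0.048 to +1.13, H2-Ab1 -1.91 to +0.067. Leaving out each mouse in turn turned a sign in PLT minus PEM for B2m -0.48 to +0.35, H2-T23 -0.50 to +0.077, Tap1 -2.01 to +0.024, Tapbp -0.27 to +0.67, Cd74 -0.74 to +1.47, H2-Ab1 -1.86 to +0.26. Leaving out each mouse in turn turned a sign in PEM minus MUL for H2-K1 -0.41 to +0.26, H2-D1 -0.15 to +0.48, H2-T23 -0.17 to +0.36, Tap1 -0.16 to +0.26, Tap2 -0.37 to +0.21, Cd74 -0.93 to +1.28, H2-Aa -0.60 to +0.77, H2-Ab1 -1.18 to +0.94. A group left with 1 mouse is assumed to vary like the others. The number of genes past the threshold in PLT minus MUL, 1 in the fit reported, was 0 with a pseudocount of 0.1 RPKM and 2 with 10 RPKM, 19 without a filter and 8 with a filter of 10 RPKM, 0 with the mean of log2 values over cells, 4 with quantile normalization, 0 with the 2 groups alone, 0 without the variance trend, 0 on plate 1 and 0 on plate 2, 2 without cells with mature markers, 0 in the window of detected genes, and 0 to 1 when 1 mouse was left out (PLT mouse 2, either PEM mouse or either MUL mouse ended the call). In PEM minus MUL, 0 in the fit reported, it was 9 without a filter, 1 with a filter of 10 RPKM and 1 without cells with mature markers. In PLT minus PEM it was 0, and 4 without a filter. The difference between class I and class II, 1.94 on average over the mice, was 1.04 without B2m and 5.40 with the mean of log2 values over cells. The mean share of cells for the class I genes was 99.8% at 1 RPKM, 99% at 5 RPKM and 97.9% at 10 RPKM. For the class II genes it was 56.5% at 1 RPKM and 87.2% above 0, and for the loading genes 55.2% at 1 RPKM, 74.7% above 0, 43.8% at 5 RPKM and 41.4% at 10 RPKM. No paired analysis was possible because the mice were numbered in accession order within their groups and the numbers pair no mice.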

Other observations

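A few genes outside the 10 stood out after their values were seen. Ctss, which encodes the protease cathepsin S that trims the class II invariant chain, averaged 0.00551 and 4.23 RPKM in the PLT mice, 28.4 and 77.8 RPKM in the PEM pair and 24.8 and 58.7 RPKM in the MUL pair. It was at 1 RPKM or more in 7.21% of all cells, and its difference in PLT minus MUL was -4.10 ± 0.92 (SE) on the log2 scale (limma adjusted p = 0.461). Cd86, a co-stimulatory ligand for T cells, averaged 1.25 and 4.82 RPKM in the PLT mice, 5.11 and 0 RPKM in the PEM pair and 32.4 and 41.98 RPKM in the MUL pair, from 3.71% of cells. Both PLT and both PEM mice were thus below both MUL mice (PLT minus MUL -3.39 ± 1.011, limma adjusted p = 0.480, and PEM minus MUL -3.94 ± 1.011, limma adjusted p = 0.868).

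Over the cells of a mouse, the levels of Tapbp were closest to those of Cd8b1 (mean Spearman correlation 0.56, range 0.45 to 0.68 over the mice), D330050I16Rik (0.52), Trmt10a (0.46) and Gnal (0.42). Of the 4070 genes compared, the next was the class II gene Cd74, at a weaker 0.22 (-0.0057 to 0.55 over the mice). Cd8b1 encodes a chain of the T cell co-receptor CD8, and its mean over the mice was 2.17 RPKM, against 174.1 RPKM for Tapbp. Of 7 T and NK cell markers, Cd3e, Cd3g and Cd4 were listed at 0 in every mouse. Cd3d averaged 0.27 RPKM over the mice and was at 1 RPKM or more in 29 cells, Cd8a averaged 0.33 RPKM, Nkg7 93.8 RPKM (21.2% of cells) and Klrb1c 28.5 RPKM (11.1% of cells). The list summed to 129.8 and 66.6 RPKM in the PLT mice, 126.7 and 111.05 RPKM in the PEM pair and 222 and 80.9 RPKM in the MUL pair.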
